A study of Mus musculus with 12 samples.

Results

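The solute carriers (SLC genes) are the large superfamily of membrane proteins that move amino acids, ions, metals, vitamins, lipids, nucleotide sugars and metabolites across the plasma membrane and the membranes of organelles, either down a gradient or coupled to one. Their families are defined by sequence, so that members of 1 family can carry different substrates, and cells of different lineages carry different members. The genes described here were chosen by symbol and by count: the symbol had the form Slc, a family number, a letter and a member number, the gene held at least 300 counts summed over all libraries, and 6 genes that met both conditions were left out by name (Slc7a5, Slc7a11, Slc7a3, Slc3a2, Slc2a1 and Slc2a3). This left 121 of the 19680 genes listed, from 35 families, out of 336 symbols of that form, 209 of which fell under the count. The summed count is therefore no result here. Just inside it lay Slc35c1 with 309 and Slc35d3 with 315 counts, and just outside lay Slc25a28 with 286 and Slc8a1 with 284. All 121 members passed the filter on low counts, and 24 of them, among them Slc35d3, Slc16a10, Slc4a4, Slc16a6 and Slc7a1, would have held fewer than 300 counts without the group in which their count was highest.

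Total RNA had been sequenced after depletion of ribosomal RNA from CJ9, a line of mouse embryonic stem cells, directed for 5 days toward endoderm or toward mesoderm. Wild type cells and cells labelled arid4b∆, a deletion of the chromatin regulator gene Arid4b, gave 3 libraries in each lineage, 12 libraries in 4 groups. The labels do not state whether a group's 3 libraries are separate cultures, nor how many clones carry the deletion, so the spread behind each p-value may be technical. Levels are CPM (counts scaled to library size by edgeR). A gene is said to have risen, fallen or been called where the adjusted p of the edgeR quasi-likelihood test over all 11635 tested genes was under 0.05. Fold changes are on the log2 scale with their standard errors.

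Several features of the libraries bear on what follows. The count of Arid4b itself was not lower in the libraries labelled knockout (40.97 CPM in wild type and 46.2 CPM in labelled knockout endoderm, 42.01 and 44.6 CPM in mesoderm). Whether the counted part of the gene lies in the deletion is not given, so these counts do not check the genotype, and every genotype direction below rests on the labels. Markers of definitive endoderm fell in all 6 of 6 tested genes in endoderm (summed level 142 to 221 CPM in wild type, 6.603 to 13.9 CPM in labelled knockout), and markers of mesoderm fell in 6 of 6 in mesoderm (181 to 433 CPM against 7.38 to 13.3 CPM) and in 5 of 6 in endoderm (116 to 143 CPM against 4.57 to 6.97 CPM). Trophoblast markers fell in 2 of 4 tested genes in endoderm (48.03 to 56.7 CPM against 15.6 to 24.1 CPM) and in 4 of 4 in mesoderm (48.4 to 113 CPM against 22.9 to 28.3 CPM). Of 5 pluripotency markers, 3 rose and 1 fell in endoderm and 2 rose and 1 fell in mesoderm, with summed levels that overlapped between genotypes in both. Of 5 tested markers of extraembryonic endoderm, 1 rose in endoderm, and 1 rose and 1 fell in mesoderm, and of 3 neural markers, 1 rose in mesoderm. In such bulk samples, fewer cells of a type and less RNA per cell cannot be told apart. Markers of fibroblasts, the usual feeder cells, rose in 6 of 11 tested genes in endoderm (summed level 109.98, 41.3 and 57.1 CPM in the wild type libraries, 363, 193 and 110.02 CPM in labelled knockout) and in 1 of 11 in mesoderm (179, 60.8 and 98.6 CPM against 337, 170.4 and 142 CPM), and library 1 of each group held the highest sum. Of the 5 blood markers, 3 were listed and none passed the filter, with summed levels up to 3.36 CPM. The part of these marker lists in the differences below was not tested. Wild type mesoderm library 1 stood apart from libraries 2 and 3 in its mesoderm markers (181, 319 and 433 CPM), and the calls that change, and the called values that move by over 1.5 times, without it are given below.

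Between genotypes, 22 members were called in endoderm, 10 higher and 12 lower in the libraries labelled knockout, and 32 in mesoderm, 15 higher and 17 lower. These are 18.2% and 26.4% of the members, beside 12.7% and 19.1% of all tested genes (higher 5.78% and lower 6.92% in endoderm, higher 8.93% and lower 10.2% in mesoderm) and 13.3% and 21.1% of tested genes that also held at least 300 counts. The median log2 fold change of the members was −0.03 in endoderm and −0.04 in mesoderm, beside −0.0037 and 0.0071 over all tested genes, so rises and falls were close to balanced. Of the members, 11 were called in both lineages, all in the same direction, which is 50% of the endoderm calls and 34.4% of the mesoderm calls (over all tested genes 58.7% and 39%). Over all tested genes, 847 of the 867 called in both lineages also had the same direction. The shared direction is thus not particular to the members. The 7 that rose in both were Slc35d3, Slc6a15, Slc16a6, Slc39a14, Slc23a2, Slc43a2 and Slc35f2, and 4 fell in both, among them Slc4a5 and Slc1a4. A further 78 members were called in neither lineage. The counts by substrate class below stand beside the same 12.7% and 19.1% of all tested genes.

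**Figure D1:**
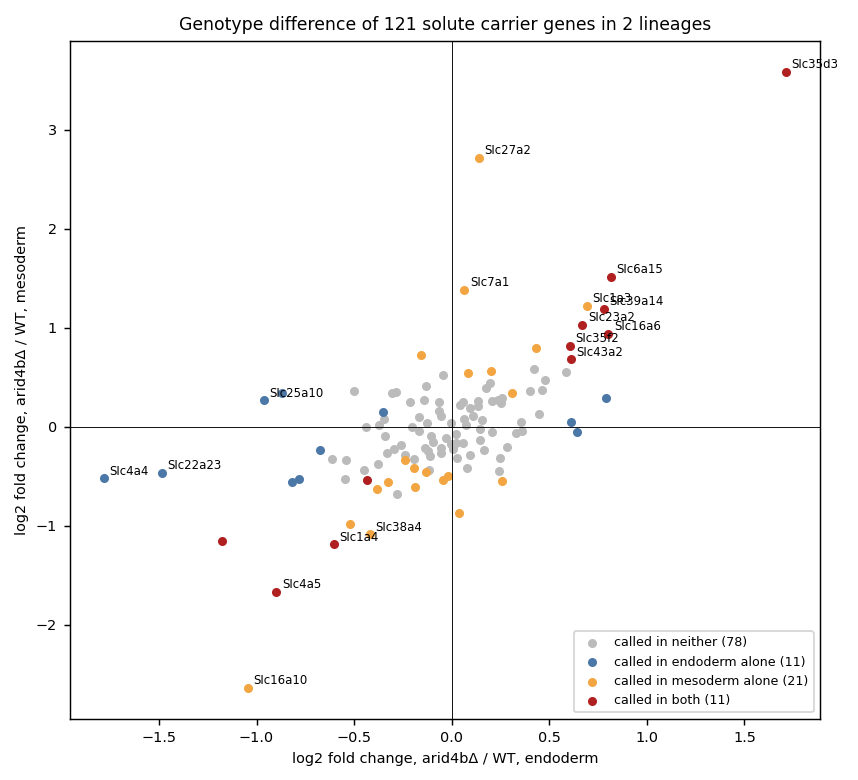
Log2 fold change of labelled knockout over wild type libraries in endoderm (x axis) and mesoderm (y axis) for the 121 members, 1 point a gene, coloured by where the edgeR call was made. The 11 genes called in both lineages lie in the upper right (7) and the lower left (4), and Slc27a2 lies near 0 in endoderm and at 2.72 in mesoderm. The y value of Slc35d3 is a fitted value against 5 counts.

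The largest rise at a measurable level was that of Slc27a2, a fatty acid transporter and very long chain acyl-CoA synthetase, in mesoderm. Its levels were 8.48, 2.58 and 2.69 CPM in the wild type mesoderm libraries and 39.98, 27.997 and 24.5 CPM in those labelled knockout. All 3 labelled knockout libraries lay above all 3 wild type libraries, and the fold change was 2.72 ± 0.29 (adjusted p = 8.35e-07). In endoderm its levels were 33.2, 44.6 and 37.6 CPM in the wild type endoderm libraries and 36.9, 42.5 and 48.3 CPM in those labelled knockout, which overlapped, with a fold change of 0.14 ± 0.19 (adjusted p = 0.713). Low Slc27a2 was thus measured in 1 of the 4 groups, wild type mesoderm, and the genotype difference itself differed between lineages by −2.58 ± 0.35 (endoderm minus mesoderm, adjusted p = 0.00019). Without wild type mesoderm library 1, which held the highest of the wild type mesoderm values, the mesoderm fold change was 3.52 ± 0.30, adjusted p = 8.40e-09, and the difference between lineages was −3.38 ± 0.34, adjusted p = 1.19e-06. Slc27a4, another fatty acid transporter of the family, fell in endoderm (−0.78 ± 0.20, adjusted p = 0.0109), a call that ended without wild type endoderm library 1 (adjusted p = 0.0545), and had −0.53 in mesoderm (adjusted p = 0.0774). The remaining 5 carriers of choline, fatty acids and acetyl-CoA (Slc27a1, Slc27a3, Slc33a1, Slc44a1 and Slc44a2) were called in neither lineage. Of these, the acetyl-CoA transporter Slc33a1 lay close to the threshold in endoderm (−0.61, adjusted p = 0.0639), and it passed by limma-voom (adjusted p = 0.0485), without the filter on low counts (adjusted p = 0.0488) and without labelled knockout endoderm library 1 (adjusted p = 0.0447). Slc44a2 passed in endoderm without that library (0.44, adjusted p = 0.0331).

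Slc35d3, an orphan relative of the nucleotide sugar transporters known from platelet dense granules, rose in both lineages from a very low level. In endoderm its levels were 4.36, 5.32 and 2.26 CPM in the wild type endoderm libraries and 9.88, 15.4 and 14.97 CPM in those labelled knockout, without overlap (fold change 1.71 ± 0.33, adjusted p = 0.00123). In mesoderm they were 1.25, 0 and 0 CPM in the wild type mesoderm libraries and 5.87, 7.08 and 3.47 CPM in those labelled knockout, again without overlap (adjusted p = 0.000377). Wild type mesoderm held 5 counts of the gene in all, every one in library 1, against 57 in labelled knockout mesoderm, a ratio of 12.8 with an exact 95% counting interval of 5.18 to 41.0, which covers counting error only. The fitted change of this gene depends on the prior count and is not given for mesoderm.

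The promoters of some of the called genes are shown as the 250 bases before a RefSeq start (build GRCm38.p6), 5′ to 3′ on the gene's own strand, because these genes moved in different directions under the same labels. Genes with larger differences than Slc25a10, such as Slc4a4 and Slc22a23, are not shown. Capitals mark every match, on either strand, to the letters searched. These were the E-box CACGTG, the amino acid response element core TGATGNAA and the core of the interferon-stimulated response element. Also searched were a loose form of the metal response element core (TGCNCNC, any base at N), the T-box site AGGTGTGA and the GC box GGGCGG. Shown are Slc27a2 (chr2:126552774-126553023, plus strand), Slc35d3 (chr10:19851460-19851709, minus strand), Slc4a5 (chr6:83237125-83237374, plus strand), Slc16a10 (chr10:40142255-40142504, minus strand) and Slc25a10 (chr11:120491587-120491836, plus strand).
Slc27a2: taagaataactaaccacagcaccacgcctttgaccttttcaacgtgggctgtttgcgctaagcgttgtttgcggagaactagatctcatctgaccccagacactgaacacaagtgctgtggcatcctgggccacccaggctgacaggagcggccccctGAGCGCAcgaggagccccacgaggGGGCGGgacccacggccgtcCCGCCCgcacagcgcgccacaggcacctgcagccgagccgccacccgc
Slc35d3: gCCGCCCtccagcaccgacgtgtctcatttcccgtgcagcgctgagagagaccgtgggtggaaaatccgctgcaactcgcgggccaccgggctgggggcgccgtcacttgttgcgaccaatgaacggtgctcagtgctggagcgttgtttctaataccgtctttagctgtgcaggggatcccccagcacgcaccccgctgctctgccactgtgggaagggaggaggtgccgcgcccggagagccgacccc
Slc4a5: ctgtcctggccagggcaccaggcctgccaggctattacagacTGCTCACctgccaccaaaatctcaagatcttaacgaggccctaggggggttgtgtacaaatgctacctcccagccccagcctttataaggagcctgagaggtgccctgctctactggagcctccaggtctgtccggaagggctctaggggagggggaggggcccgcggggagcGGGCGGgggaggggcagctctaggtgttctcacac
Slc16a10: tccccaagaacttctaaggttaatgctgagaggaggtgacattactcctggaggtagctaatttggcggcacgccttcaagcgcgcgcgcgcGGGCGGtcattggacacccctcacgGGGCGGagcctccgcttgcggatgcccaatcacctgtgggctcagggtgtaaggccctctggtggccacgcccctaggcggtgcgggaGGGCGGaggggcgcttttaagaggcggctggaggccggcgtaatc
Slc25a10: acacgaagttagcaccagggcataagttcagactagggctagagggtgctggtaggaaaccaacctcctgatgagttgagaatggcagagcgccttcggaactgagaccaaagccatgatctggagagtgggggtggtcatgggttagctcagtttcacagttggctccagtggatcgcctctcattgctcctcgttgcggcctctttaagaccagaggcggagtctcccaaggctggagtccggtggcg
The Slc27a2 window holds 2 GC boxes and 1 metal response element core, Slc35d3 1 GC box, Slc4a5 1 GC box and 1 metal response element core and Slc16a10 3 GC boxes, and Slc25a10 holds no match to these letters. The Slc4a5 and Slc35d3 windows lie inside the spans of their genes (chr6:83207580-83304945 and chr10:19847917-19856634). They therefore precede internal starts and not the outermost start of the gene. Of the 121 members, 93 had an entry in the RefSeq promoter table. Of these 93, 77.4% held a GC box in at least 1 entry (66.7% of the 8645 tested genes with an entry), 54.8% a metal response element core (57.9%), 18.3% an E-box (10.1%), 2.15% an interferon-stimulated element core (2.98%), 1.08% an amino acid response element core (2.22%) and 0 a T-box site (0.798%). These shares describe letters in a window, and some matches to the GC box and the metal element core overlap. A metal element match here is to the loose form and need not be a metal response element.

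Amino acid and peptide carriers formed the class with the most calls in mesoderm. Of 19 members, 4 rose and 5 fell in mesoderm, 47.4% of the class beside 19.1% of all tested genes, and 2 rose and 1 fell in endoderm, 15.8% beside 12.7%, with class medians of 0.10 and 0.13. The largest fall was that of Slc16a10, a facilitative carrier of aromatic amino acids. In mesoderm its levels were 15.5, 44.8 and 55.7 CPM in the wild type mesoderm libraries and 5.59, 6.15 and 6.93 CPM in those labelled knockout. Every wild type library lay above every labelled knockout library, with wild type library 1 well below the other two, and the fold change was −2.63 ± 0.34 (adjusted p = 1.15e-05). Without that library it was −3.03 ± 0.19, adjusted p = 6.47e-11. In endoderm Slc16a10 stood at 8.15, 6.69 and 7.91 CPM in the wild type endoderm libraries and 5.23, 2.71 and 3.44 CPM in those labelled knockout, a change of −1.05 that missed the threshold (adjusted p = 0.141) although the groups did not overlap. High Slc16a10 was thus measured in wild type mesoderm alone among the 4 group means (38.7 ± 20.8 CPM, SD, n = 3, beside 3.79 to 7.58 CPM). Without its highest group the gene held 212 counts, so its place among the members rests in part on that group.

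Slc6a15, a sodium-dependent carrier of branched-chain amino acids and proline, moved the other way. Its levels were 9.89, 15.4 and 12.4 CPM in the wild type endoderm libraries and 20.9, 20.5 and 26.7 CPM in those labelled knockout, and 6.73, 3.61 and 5.55 CPM in the wild type mesoderm libraries and 15.4, 16.9 and 15.996 CPM in those labelled knockout. The groups did not overlap in either lineage, and the rise was 0.82 ± 0.17 in endoderm (adjusted p = 0.00272) and 1.52 ± 0.22 in mesoderm (adjusted p = 4.41e-05). Slc1a4, the neutral amino acid exchanger ASCT1, fell in both. Its levels were 20.4, 22.6 and 20.9 CPM in the wild type endoderm libraries and 16.3, 13.9 and 12.5 CPM in those labelled knockout, and 20.95, 30.9 and 31.8 CPM in the wild type mesoderm libraries and 12.02, 11.4 and 13.1 CPM in those labelled knockout, without overlap, for changes of −0.605 ± 0.16 (adjusted p = 0.0175) and −1.19 ± 0.17 (adjusted p = 4.44e-05). The endoderm call ended without any 1 of labelled knockout endoderm libraries 2 and 3 and wild type endoderm library 2 (adjusted p = 0.0729 to 0.0975). The glutamate transporter Slc1a3, of the same family, rose in mesoderm from 7.16 ± 3.95 to 18.3 ± 4.04 CPM (mean ± SD, n = 3), a change of 1.22 ± 0.27 (adjusted p = 0.00228), and had 0.69 in endoderm (adjusted p = 0.0507).

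The cationic amino acid transporter Slc7a1 rose in mesoderm. Its levels were 5.49, 2.06 and 3.87 CPM in the wild type mesoderm libraries and 11.2, 7.38 and 13.3 CPM in those labelled knockout (1.38 ± 0.32, adjusted p = 0.00326), and in endoderm both group means were near 7 CPM (7.31 and 7.396 CPM, adjusted p = 0.926). The essential amino acid carrier Slc43a2 rose in both lineages (0.61 and 0.68, adjusted p = 0.0191 and 0.00855), and the endoderm call ended without labelled knockout endoderm library 2 (adjusted p = 0.103) or without wild type endoderm library 3 (adjusted p = 0.0838). The mesoderm call of Slc43a2 ended without labelled knockout mesoderm library 1 (adjusted p = 0.0551) or without wild type mesoderm library 3 (adjusted p = 0.0592). Falls in mesoderm were further measured for the sodium-coupled neutral amino acid carrier Slc38a4 (−1.09 ± 0.23, adjusted p = 0.00185), the peptide transporter Slc15a2 (−0.87, adjusted p = 0.0153) and the lysosomal proton-coupled carrier Slc36a1 (−0.55, adjusted p = 0.0398). Slc38a4 levels were 27.4, 70.1 and 48.3 CPM in the wild type mesoderm libraries and 16.8, 22.5 and 26.1 CPM in those labelled knockout, so that the groups did not overlap. For Slc15a2, the call ended without any 1 of labelled knockout mesoderm libraries 2 and 3 and wild type mesoderm library 3 (adjusted p = 0.0547 to 0.253). For Slc36a1, the call ended without any 1 of labelled knockout mesoderm libraries 1 and 2 and wild type mesoderm libraries 2 and 3 (adjusted p = 0.0588 to 0.159), and it did not pass by DESeq2 (adjusted p = 0.178). Slc38a2, a broad carrier of small neutral amino acids and the highest of the class per length, was called in neither lineage (0.13 and 0.26).

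The listed carriers known as targets of ATF4, the transcription factor of the amino acid response, did not all move the same way. Genes left out by name, among them Slc7a5, Slc7a11, Slc7a3 and Slc3a2, were not on this list. The list therefore does not stand for ATF4 target carriers as a whole. Of 5 such genes, 4 of them members and Slc6a9, a glycine transporter under the summed count, 1 fell in endoderm (Slc1a4), and in mesoderm Slc7a1 rose and Slc1a4 fell. These are 20% and 40% of the list beside 12.7% and 19.1% of all tested genes. The other 3 (Slc1a5, Slc6a9 and Slc38a2) had changes of 0.44, 0.25 and 0.26 in mesoderm and passed the test in neither lineage. Of the interferon-induced carriers Slc15a3 and Slc25a28, both under the summed count, Slc15a3 did not pass the filter and Slc25a28 had -0.14 and 0.51 (adjusted p = 0.815 and 0.24).

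Carriers of bicarbonate and other inorganic anions included 2 electrogenic sodium bicarbonate cotransporters that fell. Slc4a4 fell in endoderm, where its levels were 14.3, 20.1 and 13.8 CPM in the wild type endoderm libraries and 3.78, 4.74 and 5.46 CPM in those labelled knockout. These groups did not overlap (−1.78 ± 0.22, adjusted p = 6.68e-06). In mesoderm the values were 4.74, 7.21 and 7.57 CPM in the wild type libraries and 4.47, 4.31 and 4.799 CPM in those labelled knockout. The mesoderm groups overlapped (−0.52, adjusted p = 0.21). Slc4a5 fell in both lineages. It stood at 13.1, 11.3 and 13.6 CPM in the wild type endoderm libraries and 7.26, 7.96 and 4.85 CPM in those labelled knockout, and at 28.4, 19.6 and 28.8 CPM in the wild type mesoderm libraries and 5.59, 8.92 and 10.4 CPM in those labelled knockout. No labelled knockout library reached a wild type library of its lineage, and the changes were −0.898 ± 0.23 (adjusted p = 0.0108) and −1.67 ± 0.21 (adjusted p = 8.48e-06). The endoderm call ended without labelled knockout endoderm library 3 (adjusted p = 0.0786).

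The sodium-driven chloride bicarbonate exchanger Slc4a8 rose in endoderm (0.61, adjusted p = 0.0412), and the call ended without any 1 of labelled knockout endoderm libraries 2 and 3 and wild type endoderm libraries 1 and 2 (adjusted p = 0.0652 to 0.188). The chloride bicarbonate exchanger Slc4a2 fell in mesoderm (−0.56, adjusted p = 0.0324), and the call ended without any 1 of labelled knockout mesoderm libraries 1 and 3 and wild type mesoderm libraries 1 and 3 (adjusted p = 0.0663 to 0.156). The phosphate transporter Slc20a1 rose in mesoderm from 50.7 ± 11.2 to 77.4 ± 5.22 CPM (0.57, adjusted p = 0.00317). The class of 9 thus held 1 rise and 2 falls in each lineage.

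Slc16a6, of the monocarboxylate transporter family, rose in both lineages (0.803 and 0.94, adjusted p = 0.0421 and 0.0113) at levels of 4.48 to 10.03 CPM. For Slc16a6, the endoderm call ended without any 1 of labelled knockout endoderm libraries 2 and 3 and wild type endoderm libraries 2 and 3 (adjusted p = 0.0848 to 0.19), and the mesoderm call without labelled knockout mesoderm library 1 (adjusted p = 0.104). Slc16a6 also shares exon positions with Amz2 and Arsg, and reads of overlapping genes cannot be told apart where the use of strand is not given. The lactate and pyruvate carrier Slc16a1 had a small fall in endoderm (−0.35, adjusted p = 0.0467), and the call ended without any 1 of labelled knockout endoderm libraries 1, 2 and 3 and wild type endoderm library 2 (adjusted p = 0.0741 to 0.403).

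**Figure D2:**
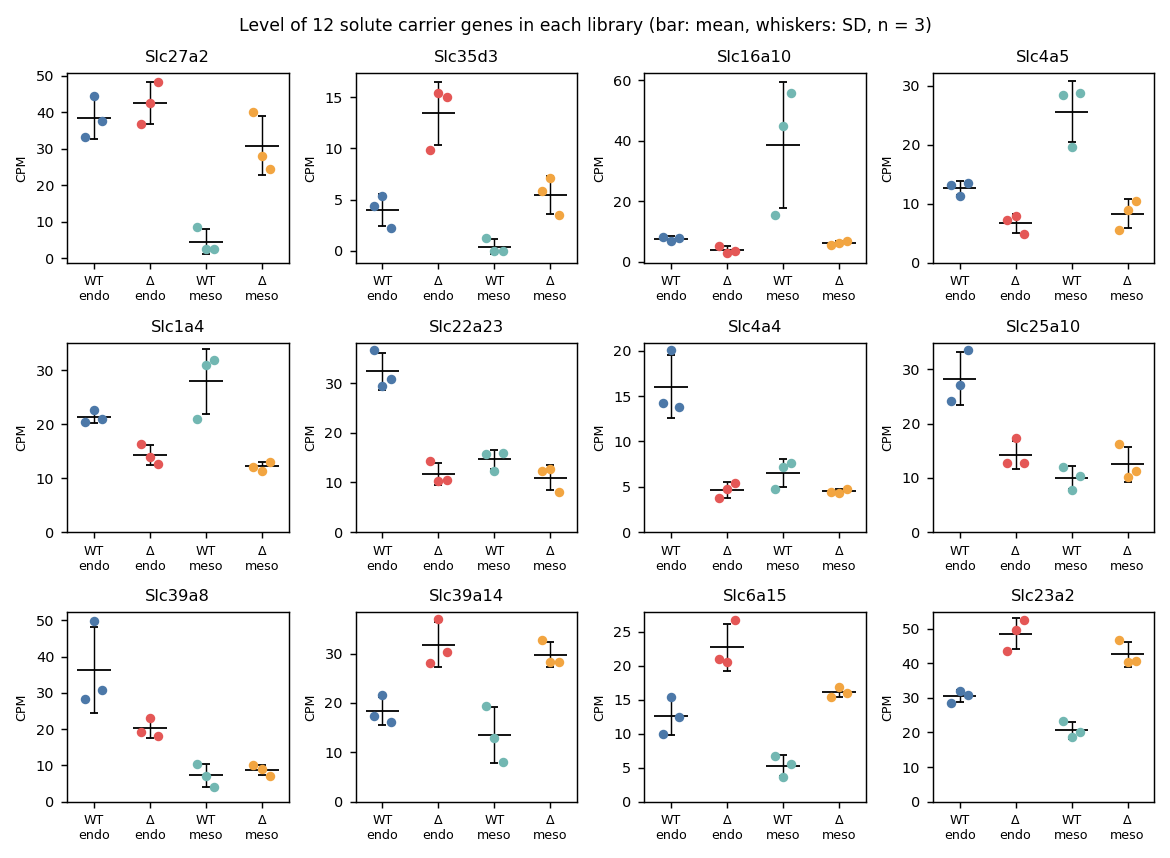
CPM (y axis, linear, scaled for each gene) of 12 members in each of the 12 libraries, with the mean and SD of each group of 3. Slc27a2 and Slc35d3 are lowest in wild type mesoderm, Slc16a10 and Slc4a5 highest there, and Slc4a4, Slc22a23, Slc25a10 and Slc39a8 highest in wild type endoderm.

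Slc22a23, an orphan of the organic ion transporter family, gave the endoderm call with the smallest adjusted p among the members. Its levels were 36.7, 29.5 and 30.8 CPM in the wild type endoderm libraries and 14.2, 10.3 and 10.5 CPM in those labelled knockout, without overlap (−1.48 ± 0.17, adjusted p = 1.60e-06), and 15.7, 12.4 and 15.8 CPM in the wild type mesoderm libraries and 12.3, 12.6 and 7.998 CPM in those labelled knockout, where the change of −0.46 missed the threshold (adjusted p = 0.109). Slc10a7, of the bile acid transporter family, rose in endoderm (0.64, adjusted p = 0.0161), and the call ended without labelled knockout endoderm library 2 (adjusted p = 0.0608) or without wild type endoderm library 3 (adjusted p = 0.0747).

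Of the 22 mitochondrial carriers, 1 was called in endoderm and 5 in mesoderm, 4 of these lower, which is 4.55% and 22.7% of the class beside 12.7% and 19.1% of all tested genes. The mesoderm share is near that of all genes. In endoderm it was Slc25a10, the dicarboxylate carrier that exchanges malate and succinate for phosphate. Its levels were 24.1, 27.1 and 33.6 CPM in the wild type endoderm libraries and 12.8, 17.3 and 12.7 CPM in those labelled knockout, without overlap (−0.96 ± 0.18, adjusted p = 0.000725). In mesoderm they were 11.97, 7.73 and 10.4 CPM in the wild type mesoderm libraries and 16.2, 10.2 and 11.2 CPM in those labelled knockout, which overlapped (0.27, adjusted p = 0.452). The difference between these effects was −1.23 ± 0.28 (adjusted p = 0.0279), a call that ended without any 1 of labelled knockout endoderm libraries 1 and 3, labelled knockout mesoderm library 1, wild type endoderm libraries 2 and 3 and wild type mesoderm libraries 2 and 3 (adjusted p = 0.0539 to 0.149). In mesoderm the citrate carrier Slc25a1 fell from 31.9 ± 3.57 to 21.3 ± 3.87 CPM (−0.61, adjusted p = 0.00489), and the oxoglutarate-malate carrier Slc25a11 from 26.3 ± 4.43 to 16.5 ± 0.935 CPM (−0.63, adjusted p = 0.00711). Slc25a11 shares exon positions with Rnf167.

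The smaller mesoderm calls of the mitochondrial carriers were the ADP/ATP carrier Slc25a4 (−0.33, adjusted p = 0.0319), the NAD carrier Slc25a51 (−0.42, adjusted p = 0.0499) and, upward, the glutathione carrier Slc25a40 (0.79, adjusted p = 0.0092). For Slc25a4, the call ended without any 1 of labelled knockout mesoderm libraries 1 and 2 and wild type mesoderm libraries 2 and 3 (adjusted p = 0.0732 to 0.133). For Slc25a51, the call ended without any 1 of labelled knockout mesoderm libraries 2 and 3 and wild type mesoderm libraries 1, 2 and 3 (adjusted p = 0.0505 to 0.259). For Slc25a40, the call ended without labelled knockout mesoderm library 3 (adjusted p = 0.0531). The ADP/ATP carrier Slc25a5 and the phosphate carrier Slc25a3, the highest of all members per length, had changes of −0.0031 and −0.0025 in endoderm and −0.17 and 0.04 in mesoderm and were not called. ADP/ATP carriers have near-identical copies in the genome, among which the counting could split reads.

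Among 12 zinc transporters, 1 rose and 1 fell in endoderm and 1 rose and 2 fell in mesoderm, 16.7% and 25% of the class, near the 12.7% and 19.1% of all tested genes. Slc39a14, which brings zinc, iron and manganese into cells, rose in both. Its levels were 17.5, 21.6 and 16.1 CPM in the wild type endoderm libraries and 28.2, 36.9 and 30.3 CPM in those labelled knockout, and 19.5, 12.9 and 8.08 CPM in the wild type mesoderm libraries and 32.7, 28.3 and 28.3 CPM in those labelled knockout. The groups did not overlap in either lineage, although wild type mesoderm spread from 8.08 to 19.5 CPM, and the changes were 0.78 ± 0.19 (adjusted p = 0.0099) and 1.19 ± 0.22 (adjusted p = 0.000521). The endoderm call ended without labelled knockout endoderm library 2 (adjusted p = 0.0678) or without wild type endoderm library 3 (adjusted p = 0.054). Slc39a8, its closest relative in the family, fell in endoderm. Its levels there were 28.2, 49.9 and 30.8 CPM in the wild type endoderm libraries and 19.2, 23.2 and 18.2 CPM in those labelled knockout, without overlap (−0.87 ± 0.21, adjusted p = 0.00818), and the call ended without wild type endoderm library 2 (adjusted p = 0.153), the highest of the group. In mesoderm Slc39a8 was low under both labels, at 10.5, 7.21 and 4.04 CPM in the wild type mesoderm libraries and 10.1, 8.92 and 7.198 CPM in those labelled knockout.

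Slc39a1 and Slc39a9 fell in mesoderm (−0.54 and −0.46, adjusted p = 0.0034 and 0.0319), and the Slc39a9 call ended without any 1 of labelled knockout mesoderm libraries 1 and 3 and wild type mesoderm libraries 2 and 3 (adjusted p = 0.0587 to 0.111). Slc39a10, the zinc importer of highest level, had −0.24 and −0.28 and was called in neither. The list of 5 zinc response genes included the transporters Slc30a1 and Slc39a10. Of these 5, the metallothionein Mt1 rose in endoderm (from 0.788 to 3.26 CPM, adjusted p = 0.0446), at levels under the minimum of 5 CPM. The others, Mt2, Mtf1, Slc30a1 and Slc39a10, were called in neither lineage. The divalent metal transporter Slc11a2 (0.55, adjusted p = 0.0158) and the transferrin receptor gene Tfrc (0.50, adjusted p = 0.000767) rose in mesoderm. Of 6 iron response genes, 2 were called there and 0 in endoderm. These are 33.3% and 0% of the list beside 19.1% and 12.7% of all tested genes. For Slc11a2, the call ended without wild type mesoderm library 3 (adjusted p = 0.0748). The magnesium transporter Slc41a1 fell in endoderm (−0.67, adjusted p = 0.0177), and the call ended without any 1 of labelled knockout endoderm libraries 2 and 3 and wild type endoderm libraries 2 and 3 (adjusted p = 0.0525 to 0.0878).

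Slc23a2, the sodium-dependent ascorbate transporter, rose in both lineages. Its levels were 28.5, 32.1 and 30.8 CPM in the wild type endoderm libraries and 43.6, 49.4 and 52.4 CPM in those labelled knockout, and 23.2, 18.5 and 20.03 CPM in the wild type mesoderm libraries and 46.7, 40.3 and 40.5 CPM in those labelled knockout. The replicates lay close together and the groups did not overlap (0.67 ± 0.11, adjusted p = 0.000255, and 1.03 ± 0.13, adjusted p = 5.26e-06). The biotin and pantothenate transporter Slc5a6 fell in endoderm (−0.82, adjusted p = 0.0133), it shares exon positions with Atraid, and the call ended without any 1 of labelled knockout endoderm libraries 2 and 3 and wild type endoderm libraries 1 and 2 (adjusted p = 0.0506 to 0.0716). Thiamine and folate carriers Slc19a2 and Slc19a1 and the riboflavin carrier Slc52a2 were called in neither lineage.

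Apart from Slc35d3, 3 of the other 16 nucleotide sugar transporters and relatives were called. The orphan Slc35f2 rose in both lineages (0.61 ± 0.15, adjusted p = 0.00841, and 0.82 ± 0.16, adjusted p = 0.000927), and the endoderm call ended without labelled knockout endoderm library 3 (adjusted p = 0.0571). Slc35f5 fell in mesoderm from 16.1 ± 1.06 to 8.24 ± 1.08 CPM (−0.98, adjusted p = 0.000924). Slc35e1 had a small rise in mesoderm (0.34, adjusted p = 0.0474), and the call ended without any 1 of labelled knockout mesoderm libraries 1, 2 and 3 and wild type mesoderm libraries 2 and 3 (adjusted p = 0.0552 to 0.195). The Golgi and endoplasmic reticulum carriers Slc35a1, Slc35a3, Slc35b1, Slc35b2, Slc35b4, Slc35c1 and Slc35d1 were all among those not called.

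Of the 9 carriers of sodium, protons, calcium and chloride, 1 rose in each lineage. The sodium potassium chloride cotransporter Slc12a2 rose in mesoderm (0.72, adjusted p = 0.0113), and the call ended without labelled knockout mesoderm library 1 (adjusted p = 0.109). The sodium proton exchanger Slc9a5 rose in endoderm (0.79, adjusted p = 0.0379), and the call ended without any 1 of labelled knockout endoderm library 2 and wild type endoderm libraries 1 and 2 (adjusted p = 0.118 to 0.236). The taurine transporter Slc6a6 fell in mesoderm (−0.499, adjusted p = 0.00636), and the call ended without wild type mesoderm library 3 (adjusted p = 0.0654). The creatine transporter Slc6a8, the 3 nucleoside carriers Slc29a1, Slc29a2 and Slc29a3 and the 3 carriers of sugars and polyols Slc5a3, Slc37a3 and Slc45a4 were called in neither lineage. Slc29a1 lay just outside the threshold in endoderm (−0.54, adjusted p = 0.0503) and passed without the filter on low counts (adjusted p = 0.045). Slc29a2 and the myo-inositol transporter Slc5a3 passed in mesoderm without wild type mesoderm library 1 (0.85 ± 0.25, adjusted p = 0.0195 and −0.54 ± 0.19, adjusted p = 0.0436).

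**Figure D3:**
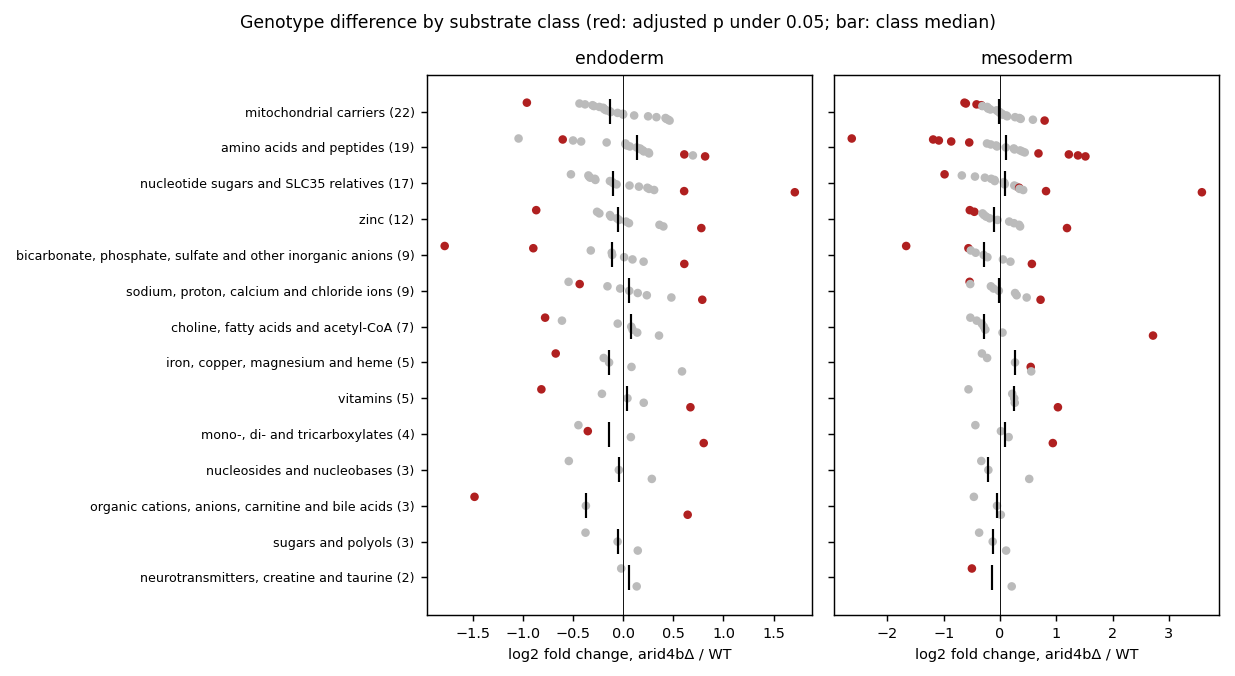
Log2 fold change of labelled knockout over wild type (x axes, which differ in range) for members by substrate class (rows, for classes of at least 2, number of members in parentheses), in endoderm and mesoderm. Red points passed the edgeR test and black bars are class medians. Called members lie on both sides of 0 in most classes with several calls.

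Calls in opposite directions within 1 family made 5 pairs of genes in endoderm and 14 in mesoderm, not all of which are named here. They came from 3 and 7 families, and a gene can enter several pairs. Pairs called in the same direction were not counted, so these numbers do not show that opposite directions were frequent. In endoderm Slc39a14 rose while Slc39a8 fell, Slc4a8 rose while Slc4a4 and Slc4a5 fell, and Slc16a6 rose while Slc16a1 fell. In mesoderm the pairs included Slc1a3 up with Slc1a4 down, Slc16a6 up with Slc16a10 down, Slc6a15 up with Slc6a6 down, Slc39a14 up with Slc39a1 and Slc39a9 down, Slc25a40 up with the 4 mitochondrial carriers that fell, and Slc35d3, Slc35e1 and Slc35f2 up with Slc35f5 down. The limits given above for single calls apply to these pairs.

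By DESeq2 on the same counts, 10 of the 22 endoderm calls and 7 of the 32 mesoderm calls did not pass. In endoderm these included Slc10a7 (0.0507), Slc16a1 (0.105), Slc16a6 (0.154), Slc1a4 (0.0638), Slc41a1 (0.108), Slc43a2 (0.0616), Slc4a8 (0.183), Slc5a6 (0.0689) and Slc9a5 (0.105), and in mesoderm Slc11a2 (0.0678), Slc25a4 (0.116), Slc25a51 (0.154), Slc35e1 (0.142), Slc36a1 (0.178), Slc39a9 (0.169) and Slc4a2 (0.102), with DESeq2 adjusted p in parentheses. Without the filter on low counts, Slc4a8 in endoderm (adjusted p = 0.055) and Slc25a4, Slc25a51, Slc35e1, Slc36a1 and Slc39a9 in mesoderm (0.0649, 0.0643, 0.0601, 0.0842 and 0.0912) did not pass by edgeR. Slc25a51 also missed it under RLE scaling (0.0518), and by limma-voom Slc16a1 in endoderm (0.0558) and Slc35e1 in mesoderm (0.0525) did not pass. Against a fold of 1.5 rather than 0, 4 endoderm calls (Slc4a4, Slc22a23 and Slc35d3 among them) and 9 mesoderm calls (Slc16a10, Slc1a4, Slc23a2, Slc27a2, Slc35d3, Slc39a14, Slc4a5 and Slc6a15 among them) passed.

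Some members not called above passed under 1 or more of these settings. In endoderm, Slc1a3 passed just under the threshold with RLE scaling, and further without the filter (adjusted p = 0.00198) and without labelled knockout endoderm library 1 (adjusted p = 0.0121). Without the filter, Slc16a10 (adjusted p = 0.00135), Slc38a4 (adjusted p = 0.0389) and Slc7a7 (adjusted p = 0.0477) passed there, all downward, and without labelled knockout endoderm library 1 Slc35f5 (−0.69, adjusted p = 0.0262) did. In mesoderm, the mitochondrial carrier Slc25a32 (0.74, adjusted p = 0.0395) and Slc39a10 (−0.37, adjusted p = 0.0376) passed without labelled knockout library 2. Slc35a3 (−1.19, adjusted p = 0.00811) and, just under the threshold, Slc27a4 passed without labelled knockout library 3. Slc12a4 (0.81, adjusted p = 0.0253), Slc31a1 (−0.48, adjusted p = 0.0407) and Slc38a2 (0.36, adjusted p = 0.0328) passed without wild type library 3.

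In wild type cells, 15 members differed between endoderm and mesoderm, 9 higher and 6 lower in endoderm. This is 12.4% of the members beside 9.84% of all tested genes (4.41% higher, 5.43% lower) and 9.77% of those with at least 300 counts. Slc27a2 was higher in endoderm by 3.05 ± 0.28 (adjusted p = 9.04e-08), Slc39a8 by 2.43 ± 0.26 (adjusted p = 1.06e-06), Slc25a10 by 1.43 ± 0.19 (adjusted p = 2.40e-05), Slc4a4 by 1.33 ± 0.22 (adjusted p = 0.000254), Slc6a15 by 1.1998 ± 0.22 (adjusted p = 0.000808) and Slc22a23 by 1.09 ± 0.17 (adjusted p = 9.88e-05). Slc35d3 held 54 counts in wild type endoderm against 5 in wild type mesoderm, a ratio of 10.03 (exact 95% counting interval 4.04 to 32.1). Higher in mesoderm were Slc16a10 (−2.37 ± 0.32, adjusted p = 2.41e-05), Slc4a5 (−1.08 ± 0.19, adjusted p = 0.000535), the aspartate-glutamate carrier Slc25a13 (−0.76, adjusted p = 0.00611), Slc36a1 (−0.73, adjusted p = 0.0101), the sulfate transporter Slc26a2 (−0.55, adjusted p = 0.0398) and the pyrimidine nucleotide carrier Slc25a36 (−0.496, adjusted p = 0.027). The Slc25a36 call ended without any 1 of wild type endoderm libraries 1 and 2 and wild type mesoderm libraries 2 and 3 (adjusted p = 0.0502 to 0.165). The Slc26a2 call ended without any 1 of wild type endoderm libraries 1, 2 and 3 and wild type mesoderm libraries 2 and 3 (adjusted p = 0.0554 to 0.297). The Slc36a1 call ended without wild type mesoderm library 3 (adjusted p = 0.0717). By DESeq2 none of these 3 passed (adjusted p = 0.061, 0.188 and 0.0682), and Slc26a2 did not pass without the filter (0.0589). The other 2 calls, both higher in endoderm, were Slc23a2 (0.55) and Slc16a1 (0.505). The Slc23a2 call ended without wild type mesoderm library 3 (adjusted p = 0.0505), and the Slc16a1 call without wild type endoderm library 2 (adjusted p = 0.106) or without wild type mesoderm library 3 (adjusted p = 0.0548).

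In the libraries labelled knockout, 2 members differed between the lineages, 1.65% beside 1.86% of all tested genes. Slc39a8 was higher in endoderm by 1.22 ± 0.27 (adjusted p = 0.0182), a call that ended without any 1 of labelled knockout endoderm library 2 and labelled knockout mesoderm libraries 2 and 3 (adjusted p = 0.0685 to 0.135). Slc35d3 was higher by 1.33 ± 0.33 (adjusted p = 0.0375), and the call ended without any 1 of labelled knockout endoderm libraries 2 and 3 and labelled knockout mesoderm libraries 1, 2 and 3 (adjusted p = 0.0685 to 0.249). The lineage differences of the other members called in wild type cells were between −0.79 (Slc16a10) and 0.499 (Slc6a15) under the knockout label, and none of them passed. The change in lineage difference between the genotypes is the interaction, and among all members it was called for Slc27a2 and Slc25a10 alone (1.65% of members, 1.4% of all tested genes). Without the filter on low counts, 7 further members passed (Slc12a2, Slc16a10, Slc22a23, Slc39a8, Slc4a4, Slc7a1 and Slc7a7, adjusted p = 0.00038 to 0.0456). The same 7 passed with the replicate number as a block (adjusted p = 0.00261 to 0.048).

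Leaving out wild type mesoderm library 1 moved these counts. Genotype calls in mesoderm went from 32 to 37, wild type lineage calls from 15 to 25 members and interaction calls from 2 to 10. In mesoderm, Slc4a2 and Slc25a51 were lost between genotypes and 7 members were added, upward Slc29a2, Slc38a1 (0.35 ± 0.12, adjusted p = 0.0382) and Slc39a7 (0.36 ± 0.13, adjusted p = 0.0468) and downward Slc35a3 (−0.88 ± 0.29, adjusted p = 0.0325), Slc4a7 (−0.53 ± 0.16, adjusted p = 0.024), Slc39a10 (−0.33 ± 0.12, adjusted p = 0.0454) and Slc5a3. Between wild type lineages, Slc22a17 (1.24 ± 0.27, adjusted p = 0.00258), Slc1a3 (1.02 ± 0.30, adjusted p = 0.025), Slc39a14 (0.99 ± 0.22, adjusted p = 0.00288), Slc29a2 (0.98 ± 0.25, adjusted p = 0.00838) and Slc19a1 (0.86 ± 0.26, adjusted p = 0.0348) were added as higher in endoderm. Slc38a4 (−0.93 ± 0.17, adjusted p = 0.000407), Slc10a7 (−0.74 ± 0.16, adjusted p = 0.00273), Slc15a2 (−0.67 ± 0.21, adjusted p = 0.0346) and Slc1a4 (−0.55 ± 0.14, adjusted p = 0.0121) were among those added as higher in mesoderm. The lineage difference of Slc27a2 was then 3.86 ± 0.29, adjusted p = 9.25e-10. The 8 members then added to the interaction included Slc16a10 (1.99 ± 0.33, adjusted p = 0.000795), Slc39a8 (−1.70 ± 0.40, adjusted p = 0.0155), Slc22a23 (−1.05 ± 0.28, adjusted p = 0.0373), Slc38a4 (0.95 ± 0.24, adjusted p = 0.0314), Slc12a2 (−1.04 ± 0.27, adjusted p = 0.0346), Slc15a2 (1.16 ± 0.29, adjusted p = 0.0276) and Slc10a7 (0.91 ± 0.21, adjusted p = 0.0166), with Slc35d3 the remaining gene. The mesoderm genotype changes were then 1.65 ± 0.21, adjusted p = 3.43e-06 for Slc39a14, −1.37 ± 0.18, adjusted p = 5.36e-06 for Slc38a4, 1.56 ± 0.29, adjusted p = 0.000359 for Slc1a3 and −1.37 ± 0.16, adjusted p = 1.13e-06 for Slc1a4. This left-out fit was chosen because the library's markers stood apart, and the 2 remaining libraries are assumed to vary like the other groups.

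**Figure D4:**
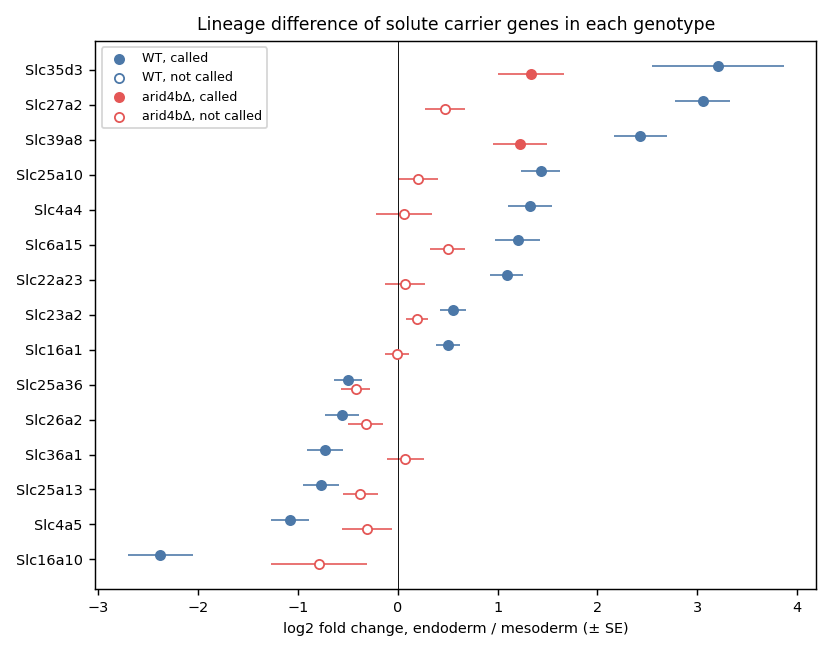
Log2 fold change of endoderm over mesoderm with its standard error (x axis) for the 15 members called in wild type libraries, 2 of which were also called in the libraries labelled knockout (filled points passed the edgeR test, open points did not). Labelled knockout estimates lie nearer 0 than wild type estimates for all 15 genes. The genes were chosen by their wild type calls, so estimates nearer 0 under the other label are expected in part from that choice.

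Levels were compared between members only per kilobase of exon (CPM per kb). The mitochondrial carriers Slc25a5 (mean over libraries 89.9 CPM per kb), Slc25a3 (28.6) and Slc25a4 (20.8), the zinc importer Slc39a10 (22.2), the amino acid carrier Slc38a2 (17.7) and the lactate carrier Slc16a1 (16.7) stood highest. Summed over each class, mitochondrial carriers held 238 ± 2.31 CPM per kb in wild type endoderm, 225 ± 2.91 in labelled knockout endoderm, 237 ± 8.66 in wild type mesoderm and 211 ± 5.88 in labelled knockout mesoderm (SD, n = 3). The libraries labelled knockout lay below the wild type libraries of their lineage in all cases (221.8 to 228 against 236 to 240.2 CPM per kb, and 204 to 215 against 228 to 245 CPM per kb). Amino acid carriers held 73.6 ± 4.16, 75.5 ± 2.94, 82.2 ± 11.7 and 76.0 ± 2.19 CPM per kb in the same order, and zinc transporters 75.1 ± 4.82, 71.1 ± 1.05, 70.6 ± 4.32 and 65.0 ± 3.07. The sums of these 2 classes overlapped between genotypes in both lineages. Separation was not particular to mitochondrial carriers. Vitamin carriers lay higher in the labelled knockout libraries in endoderm (18.6 to 19.4 against 17.4 to 17.7 CPM per kb). They did so in mesoderm too (18.4 to 19.7 against 13.8 to 17.2 CPM per kb). Of these 5 carriers, only Slc23a2 rose in either lineage, and Slc5a6 fell in endoderm. The vitamin sums therefore do not show a shift of the whole class. Several further classes were apart in a lineage or in both, some higher and some lower. Class sums are descriptions without a test, and Slc25a5 alone makes up a large share of the mitochondrial sum.

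The highest members of the other classes per length were the phosphate transporters Slc20a1 (11.4) and Slc20a2 (8.54), Slc35e1 (9.18), Slc27a2 (7.75), the thiamine transporter Slc19a2 (8.24) and the copper importer Slc31a1 (6.297). Slc24a5, the pigment cell ion exchanger, also ranked high (13.99 CPM per kb), and its exons share positions with those of Myef2. In all, 16 members share exon positions with another listed gene.

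**Figure D5:**
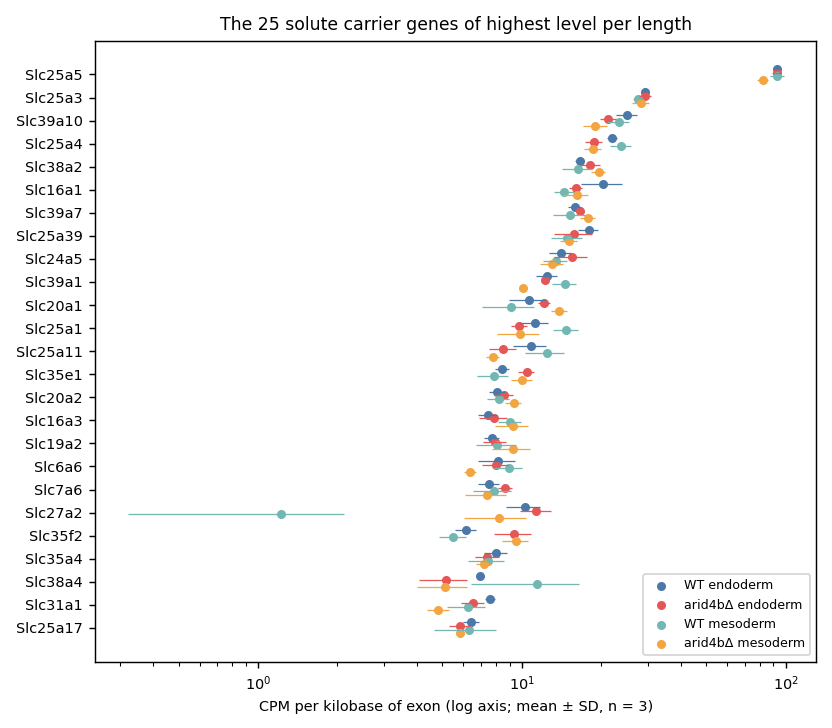
Mean CPM per kilobase of exon (x axis, log scale) with SD over 3 libraries for the 25 members of highest level, in each of the 4 groups (colours). Slc25a5 lies at about 90 and the rest under 30, and groups lie close together for most genes, with wild type mesoderm apart for Slc27a2.

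Other membrane transporters outside the SLC symbols (ABC transporters, P-type ATPases, organic anion and major facilitator carriers) gave 6 rises and 10 falls among 70 tested genes in endoderm and 3 rises and 9 falls in mesoderm. These are 22.9% and 17.1% of them beside 12.7% and 19.1% of all tested genes, so the mesoderm share is near that of all genes. Among those called in both lineages, the organic anion transporter Slco5a1 (−1.13 in endoderm, adjusted p = 0.00414, and −2.55 in mesoderm, adjusted p = 7.54e-08) and the sodium pump subunit Atp1b2 (−0.77 in endoderm, adjusted p = 0.000244, and −1.30 in mesoderm, adjusted p = 1.62e-07) fell, and the cyclic nucleotide exporter Abcc4 (0.90 in endoderm, adjusted p = 0.000655, and 1.34 in mesoderm, adjusted p = 5.71e-06) rose. The phospholipid flippase Atp8a1 fell in the endoderm libraries (−2.18 in endoderm, adjusted p = 3.77e-08, and 0.18 in mesoderm, adjusted p = 0.689).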

How the data were processed

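Total RNA of 12 libraries (3 per group) was sequenced after ribosomal RNA depletion with a directional kit, per the labels' protocols. The values are raw counts of reads per gene as deposited by the authors. STAR, DESeq2 and mm10 are named in the submitters' processing notes. The counting program, its strand setting and the versions were not given in the sources used here. Libraries held 10351074 to 35660108 counts, of which Rn45s (ribosomal RNA precursor) took 79.7% to 82.4%. Without it, 1949299 to 6678893 counts remained, and the 121 members held 5675 to 18145. Rn45s and 26 genes with a date in place of a count, none a member, were left out.

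Groups came from the sample titles. The counts were fitted with edgeR 4.0.16 in R 4.3.3 (quasi-likelihood test, TMM scaling, filterByExpr with a minimum count of 10, 4 group means over 12 libraries, no covariates), with Benjamini-Hochberg adjustment over 11635 genes at 0.05. The biological coefficient of variation was 9.71%. The script was tested on simulated data. Exon lengths and overlaps came from GENCODE M21, promoters from RefSeq (GRCm38.p6). Intervals and the sums of counts cover counting error only.

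Members and gene lists were chosen with earlier results of these data known. Genes named were the 10 largest rises and falls per genotype comparison among called members with at least 5 CPM in the higher group, 2 per substrate class by adjusted p, the 6 largest each way between lineages, the 3 highest per length in classes of 5 or more, short lists (ATF4 target, interferon-induced, zinc and iron response) and opposite pairs in a family. Slc36a1 in mesoderm, Slc35d3, Slc23a2 and Slc16a1 between wild type lineages, the other transporters given by name and members added under an alternative were named after their values were seen. Some genes that these rules name are not reported here. Alternatives were RLE scaling, no filter, no Mir6236 and Lars2, DESeq2 1.42.0, limma-voom (limma 3.58.1), a replicate block, a test against a fold of 1.5, a summed count of at least 1000, and each library left out.

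Replicate numbers were not taken as pairs, because the correlations of deviations between libraries of the same number were not all over 0.1. These correlations were all positive (0.0132 to 0.193), and between lineages of a genotype each library correlated best with its own number in 6 of 6 cases. The rule therefore does not set aside a pairing, and the main tests do not model it. Counts of calls with the number as a block are given below.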

Additional observations from a re-analysis of the deposited data

Results flagged for a closer look

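Among the members, 2 had a genotype effect that differed between lineages by a test of the difference itself (edgeR quasi-likelihood interaction). For Slc27a2, the fatty acid transporter, the effect in endoderm minus that in mesoderm was −2.58 on the log2 scale (adjusted p = 0.00019), with labelled knockout above wild type in 3 of 3 mesoderm libraries and overlapping groups in endoderm. For Slc25a10, the mitochondrial dicarboxylate carrier, it was −1.23 (adjusted p = 0.0279), with all 3 labelled knockout libraries below wild type in endoderm and overlapping groups in mesoderm. The Slc25a10 call ended without any 1 of 7 libraries (adjusted p up to 0.149, without labelled knockout mesoderm library 1), and the Slc27a2 call passed without each of the 12.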

How the results depend on the processing

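No alternative reversed the direction of a named call. The totals below do not separate rises from falls, so they do not show whether the balance between them held. Each number below is the total of members called under a setting, and may hold members not called in the analysis above. In endoderm the total of 22 became 12 under DESeq2, 36 under the replicate block, 4 against a fold of 1.5, 5 (among 44 members) with a summed count of at least 1000 and 11 to 24 with each library left out. In mesoderm the total of 32 became 9 against a fold of 1.5, 15 (among the 44) with a summed count of at least 1000 and 23 to 37 with each library left out. The 2 interaction calls became 9 without a filter, 9 under the replicate block, 1 against a fold of 1.5, 1 at a summed count of 1000 and 1 to 10 with each library left out. The 15 wild type lineage calls became 8 against a fold of 1.5, 4 at a summed count of 1000 and 10 to 25 with each library left out. The 2 labelled knockout lineage calls became 5 without a filter, 7 under the replicate block, 0 against a fold of 1.5, 0 at a summed count of 1000 and 0 to 2 with each library left out. Why the counts moved was not tested, beyond fewer libraries or fewer members entering. The block is a number shared by the libraries: each library correlated best with its own number in 6 of 6 cases between lineages of a genotype, and in 4 and 3 of 6 between genotypes in endoderm and mesoderm. In endoderm the block ended no call and added 14, among them Slc1a3 (adjusted p = 0.000611), Slc16a10 (0.00235), Slc33a1 (0.0155), Slc29a1 (0.02) and Slc25a11 (0.0439). In mesoderm it added none, and Slc25a4, Slc25a51, Slc35e1, Slc36a1 and Slc39a9 did not pass (0.0617 to 0.0822), nor did Slc26a2 between wild type lineages (0.0604). Calls kept without each library were 7 of 22 in endoderm, 18 of 32 in mesoderm, 1 of 2 for the interaction, 10 of 15 between wild type lineages and 0 of 2 between labelled knockout lineages. Depth limits the members near 5 CPM, such as Slc35d3, Slc16a6 and Slc4a4.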
